A study of Canis lupus familiaris with 6 samples.

Results

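The genes described are the EGF receptor and its relatives ERBB2, ERBB3 and ERBB4, the ligands EGF, AREG, EREG, HBEGF and TGFA, and ERRFI1, an inhibitor of these receptors. They were taken by gene symbol: every probe set of the deposited table whose annotation gave 1 symbol, and that symbol a member's, was kept. This gave 19 probe sets for the 10 genes, of 42924 probe sets tested and 15115 genes with a symbol. Transcripts were measured on canine Affymetrix arrays in MDCKII, an established line of dog kidney epithelial cells. In 2D (3 arrays) the cells formed a polarized monolayer on plastic. In 3D (3 arrays) they formed cysts on a thin Matrigel layer of 100 µl in a 60 mm dish, in medium that itself held 2% Matrigel. All cells were in MEM and were taken 36 h after plating, with no genetic change or added agent named in the labels for either group. Substrate and medium differed together between the groups, so their parts cannot be told apart. The design asks for genes with more transcript in cells that are forming a lumen.

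The EGF receptor family is a set of receptor tyrosine kinases that pair with each other when a ligand binds and then signal to the ERK and the PI3K-AKT routes. EGF, amphiregulin (AREG), TGF-alpha (TGFA), epiregulin (EREG) and HB-EGF bind EGFR, and the last pair also bind ERBB4. ERBB2 has no known soluble ligand, and ERBB3 has a very weak kinase and acts through its partners, with docking sites for PI3K. The ligands are made as membrane proteins and released by proteases of the ADAM family. ERRFI1, also known as MIG6, binds the kinase domain of the receptors and switches it off, and its transcript is itself raised by receptor signalling. In the kidney, EGF is made mainly in the distal nephron.

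The 6 arrays did not share a scale. Replicates 2 and 3 (4 arrays) had medians of 7.06 to 7.08 and lower quartiles of 5.64 to 5.67 over all probe sets. For replicate 1 the 2D array had a median of 5.42 and a lower quartile of 3.52, and the 3D array 5.26 and 3.38. Values are log2 throughout, and a level is given only beside others of its own scale. Differences between 3D and 2D were tested with limma on replicates 2 and 3 (n = 2 arrays per group), with p-values adjusted across all 42924 and called below 0.05. The replicate 1 pair gives a further difference with no test. Levels of different probe sets cannot be ranked against each other, since each set of probes binds with its own strength.

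The markers of the labelled cell type were not dim: all 9 measured epithelial markers, among them the keratins KRT8 and KRT18, lay above the lower quartile on the 4 arrays of replicates 2 and 3, and none of them passed the test. Of the fibroblast, endothelial and leukocyte markers, 2 of 8, 2 of 5 and 0 of 5 lay below the lower quartile on all 4 arrays, and none passed. Since most markers of the other cell types were above that level too, it does not tell cell types apart. The 8 markers of the thick ascending limb and distal convoluted tubule did not pass either. The added poly-A control transcripts averaged 9.83 on 3D replicate 2 against 8.81 to 8.98 on the other 3 arrays of that scale, and 8.49 against 7.66 in 3D and 2D replicate 1. The excess of 3' over 5' signal, a sign of RNA breakdown, was larger on both 3D than on both 2D arrays of replicates 2 and 3 for 2 of 4 pairs of actin or GAPDH controls. In replicate 1, on its own scale, the actin pairs went from -0.29 in 2D to -0.08 in 3D and from 2.17 to 2.90. The GAPDH pairs went from 0.52 to 0.50 and from 1.67 to 1.47. The part of these controls in the results below was not tested.

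On replicates 2 and 3 the cysts had more transcript of ERBB3 and, on 1 of 2 probe sets, of EGF, and less of EREG and ERRFI1. EGFR, ERBB2, ERBB4, AREG, HBEGF and TGFA had no probe set past the threshold. In replicate 1 ERBB3 went the other way (-0.68). No member passed with a replicate block, where 0 of all 42924 probe sets passed. None passed with all 6 arrays either, where 0 or 2 of all probe sets passed, depending on the scaling and block. The absence of calls in these fits was thus not particular to the members. On replicates 2 and 3 without a block, 2 of the 19 probe sets were higher and 3 lower in 3D (5 of 19, 26.3%). Among all probe sets 6.61% passed, 3.65% higher and 2.96% lower. Some members were known to pass when the set was drawn up, so the larger share is a description. The median log2 fold change was 0.03 over the members and -0.005 over all probe sets. The 2D and 3D arrays did not overlap for 11 of the 19 probe sets (57.9%), against 51.8% of all probe sets, and the gap between the groups was as small as 0.01. In RNA from whole dishes, fewer cells making a transcript and less transcript per cell cannot be told apart. Nothing in the labels says that replicates were separate cultures beyond the word biological. The p-values rest on the spread between these arrays, which limma draws toward a spread common to all probe sets. That common spread had 4.06 degrees of freedom, against 2 from the arrays of a single probe set.

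**Figure D1:**
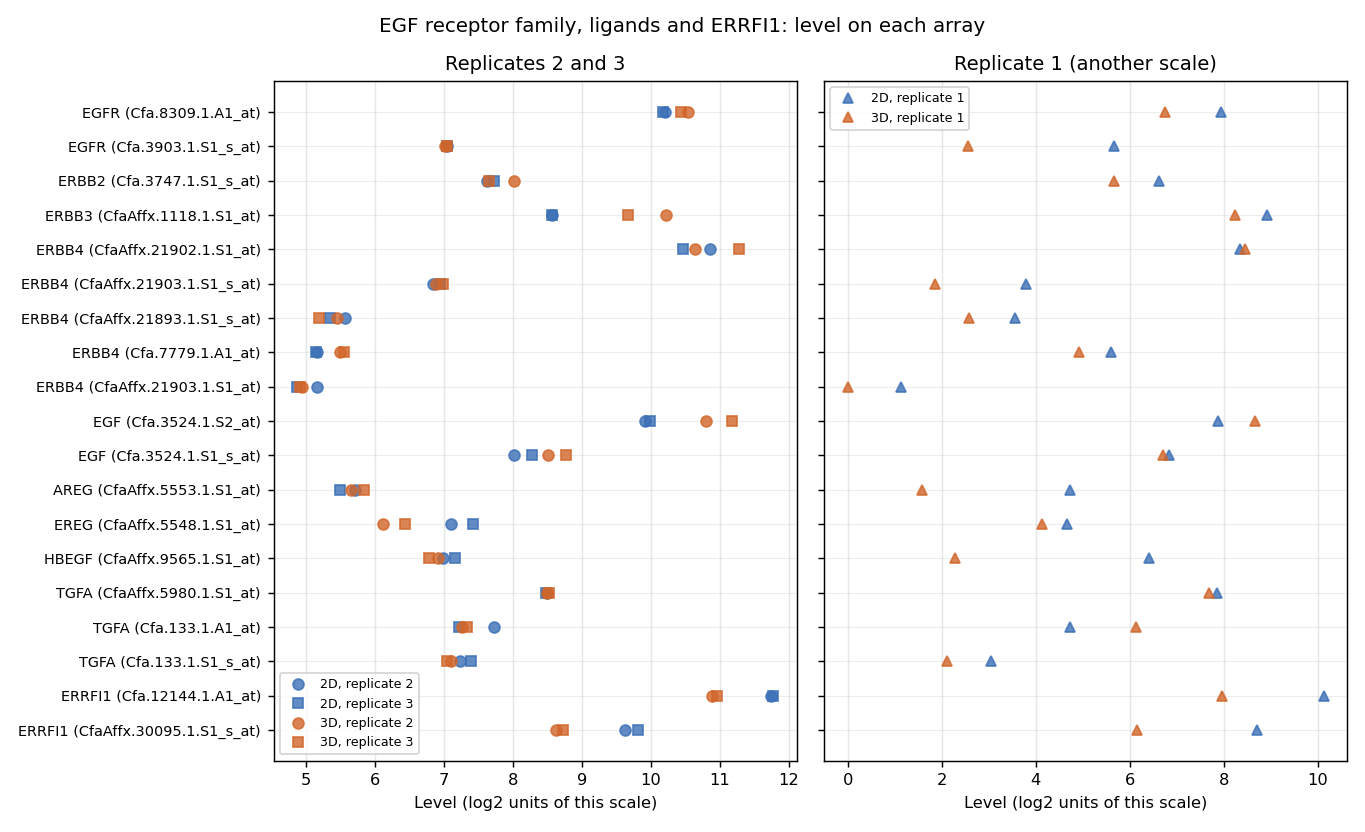
Log2 level (x axis) of each of the 19 probe sets (rows) on each array, with 2D in blue and 3D in orange, replicates 2 and 3 on the left and replicate 1 on its own scale on the right. On the left, ERBB3 and the EGF probe set Cfa.3524.1.S2_at have both 3D points to the right of both 2D points, and EREG and both ERRFI1 probe sets have them to the left.

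Among the receptors, ERBB3 stood out. Its single probe set, CfaAffx.1118.1.S1_at, read 8.57 and 8.56 on 2D replicates 2 and 3, and 10.22 and 9.67 on 3D replicates 2 and 3. The 2D arrays were nearly equal, both 3D arrays lay above them, and the 3D arrays were farther apart than the 2D arrays. ERBB3 was 2.60-fold higher in 3D (log2 fold change 1.38, SE 0.185, limma adjusted p = 0.0169, n = 2 per group). In replicate 1 the order was the other way, with 8.92 in 2D and 8.24 in 3D, a difference of -0.68. Both values lay well above the lower quartiles of their arrays, and no test was made of replicate 1 against the others.

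EGFR, the receptor that all 5 ligands bind, had 2 probe sets, and neither passed. Cfa.8309.1.A1_at read 10.20 and 10.18 in 2D and 10.53 and 10.44 in 3D. Its 3D arrays lay above its 2D arrays by a small margin (log2 fold change 0.295, 95% interval 0.0511 to 0.539, limma adjusted p = 0.145, n = 2 per group). Cfa.3903.1.S1_s_at read 7.05 and 7.04 in 2D and 7.02 and 7.04 in 3D, values that overlap (-0.015, 95% interval -0.251 to 0.221). Both intervals lay within a 2-fold change in either direction. In replicate 1 both were lower in 3D, from 7.93 to 6.75 on the first and from 5.67 to 2.56 on the second, where the 3D value lay below the lower quartile of its array and the size is uncertain.

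ERBB2, the partner that other family members prefer, read 7.63 and 7.73 in 2D and 8.01 and 7.65 in 3D. The groups overlapped, and the difference was 0.15 (SE 0.144, 95% interval -0.202 to 0.502, limma adjusted p = 0.614, n = 2 per group). In replicate 1 ERBB2 read 6.61 in 2D and 5.66 in 3D.

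ERBB4, a receptor for neuregulins as well as for part of the EGF ligands, had 5 probe sets, and none passed. The brightest, CfaAffx.21902.1.S1_at, read 10.85 and 10.47 in 2D and 10.63 and 11.27 in 3D. Its groups overlapped and its arrays were the most spread of the set, so that the difference of 0.29 had a wide 95% interval of -0.282 to 0.862. Cfa.7779.1.A1_at separated the groups, with 5.16 and 5.15 in 2D and 5.50 and 5.56 in 3D, but all 4 values lay below the lower quartiles of their arrays and the difference of 0.375 did not pass (SE 0.0979, limma adjusted p = 0.0808, n = 2 per group). CfaAffx.21893.1.S1_s_at (-0.14) and CfaAffx.21903.1.S1_at (-0.095) were as dim, and CfaAffx.21903.1.S1_s_at differed by 0.04. In replicate 1 the 5 ERBB4 probe sets differed by 0.10, -1.93, -0.97, -0.68 and -1.14, in order of falling level on replicates 2 and 3. The brightest was thus the only ERBB4 probe set not lower in 3D there.

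**Figure D2:**
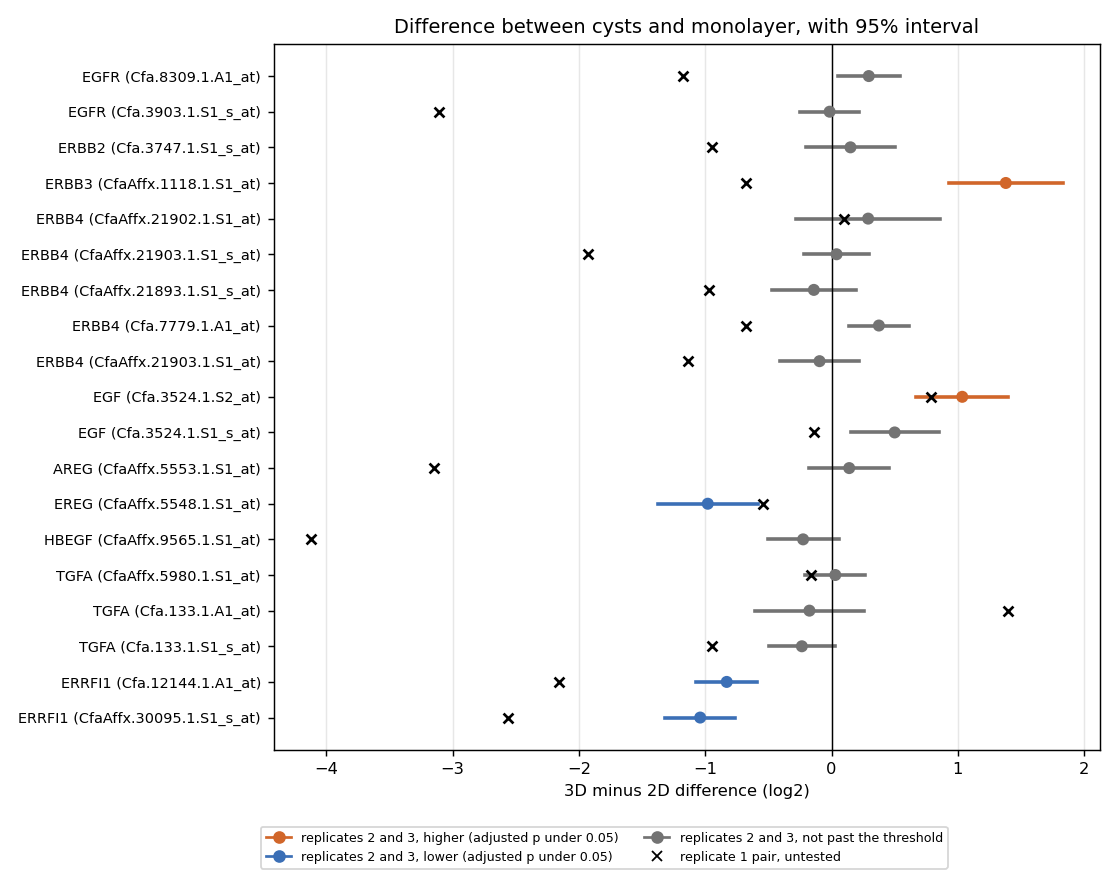
Difference between 3D and 2D in log2 units (x axis) for each of the 19 probe sets (rows): circles with 95% limma intervals for replicates 2 and 3, orange where higher and blue where lower past the threshold, grey otherwise, and crosses for the untested replicate 1 pair. The crosses of HBEGF (-4.12), AREG (-3.15) and 1 EGFR probe set (-3.11) lie far to the left of circles near 0.

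Of the 5 ligands, EGF rose, EREG fell and AREG, HBEGF and TGFA did not pass. EGF has 2 probe sets. Cfa.3524.1.S2_at read 9.92 and 9.98 on the 2D arrays and 10.79 and 11.18 on the 3D arrays. Both 3D arrays lay above both 2D arrays by at least 0.81, and EGF was 2.05-fold higher on this probe set (log2 fold change 1.04, SE 0.149, limma adjusted p = 0.0194, n = 2 per group). Replicate 1 went the same way, from 7.88 to 8.67. The second EGF probe set, Cfa.3524.1.S1_s_at, read 8.01 and 8.27 in 2D and 8.51 and 8.77 in 3D. It also had both 3D arrays above both 2D arrays, but with a difference of 0.50 (95% interval 0.151 to 0.849) it did not pass (limma adjusted p = 0.0992, n = 2 per group), and in replicate 1 it read 6.84 and 6.70. The mean of both probe sets, an alternative chosen after seeing the data, was 0.77 higher (limma adjusted p = 0.0284 over 15115 gene means, n = 2 per group).

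EREG, which encodes epiregulin, has 1 probe set, CfaAffx.5548.1.S1_at. It read 7.10 and 7.42 in 2D and 6.12 and 6.44 in 3D. Both 3D arrays lay below both 2D arrays, and EREG was 1.97-fold lower in 3D (log2 fold change -0.98, SE 0.162, limma adjusted p = 0.0273, n = 2 per group). In replicate 1 it read 4.67 in 2D and 4.13 in 3D, a difference of -0.54 in the same direction.

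AREG, which encodes amphiregulin, is the direct neighbour of EREG in the gene table of the dog assembly UU_Cfam_GSD_1.0, with 0 protein-coding genes between them. It read 5.72 and 5.49 in 2D and 5.65 and 5.84 in 3D, close to the lower quartiles of 5.64 to 5.67. The groups overlapped, with a difference of 0.14 (95% interval -0.175 to 0.455, limma adjusted p = 0.596, n = 2 per group). In replicate 1 AREG read 4.73 in 2D and 1.58 in 3D, the latter far below the lower quartile of that array. Whether AREG and EREG differed in their response was not tested.

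HBEGF, the heparin-binding ligand, read 6.99 and 7.16 in 2D and 6.92 and 6.78 in 3D. Both 3D arrays lay below both 2D arrays by only 0.07, and the difference of -0.225 did not pass (95% interval -0.506 to 0.0564, limma adjusted p = 0.312, n = 2 per group). In replicate 1 HBEGF had the largest difference of all 19 probe sets, with 6.41 in 2D and 2.29 in 3D. The 3D value lay below the lower quartile of its array, so the size of that difference is uncertain.

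TGFA has 3 probe sets, of which 0 passed. CfaAffx.5980.1.S1_at read 8.49 and 8.48 in 2D and 8.50 and 8.53 in 3D, a difference of 0.03 (95% interval -0.206 to 0.266). Cfa.133.1.A1_at read 7.73 and 7.22 in 2D and 7.27 and 7.33 in 3D, and here 2D replicate 2 stood apart from the other 3 arrays. Cfa.133.1.S1_s_at read 7.23 and 7.39 in 2D and 7.10 and 7.05 in 3D (-0.235, 95% interval -0.498 to 0.0279). The probe sets disagreed in replicate 1, with differences of -0.16, 1.40 and -0.95 in the same order.

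ERRFI1, the receptor inhibitor, fell on both of its probe sets, and both were lower in 3D in replicate 1 as well. Cfa.12144.1.A1_at read 11.74 and 11.77 in 2D and 10.89 and 10.96 in 3D. The arrays of each group were close together and the groups were 0.78 apart, and ERRFI1 was 1.78-fold lower in 3D on this probe set (log2 fold change -0.83, SE 0.0988, limma adjusted p = 0.0134, n = 2 per group). CfaAffx.30095.1.S1_s_at read 9.63 and 9.81 in 2D and 8.63 and 8.73 in 3D, and was 2.06-fold lower (log2 fold change -1.04, SE 0.113, limma adjusted p = 0.0114, n = 2 per group). In replicate 1 the first probe set went from 10.12 to 7.96 and the second from 8.70 to 6.14, differences of -2.16 and -2.56. All 4 of these values lay above the medians of their arrays.

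The 5 probe sets that passed had groups without overlap, so leaving out 1 array could not turn their direction. With replicate 2 or 3 of 2D or of 3D left out, ERBB3 ranged from 1.105 to 1.655 and EGF from 0.84 to 1.23. EREG ranged from -1.14 to -0.82, and the ERRFI1 probe sets from -0.865 to -0.795 and from -1.13 to -0.95. The spread then comes from the other group alone, and the lone array is assumed to vary like it. At that size 0 of all 42924 probe sets passed limma's adjusted threshold, the members included, with 4683 to 10892 at an unadjusted p under 0.05 and 6 to 8 among the members, so these fits do not bear on the calls.

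In replicate 1 most members were lower in 3D. The difference was below 0 for 16 of the 19 probe sets and above 0 for 3, against 55.9% below 0 among all probe sets. The members' median difference was -0.95, and that of all probe sets -0.14. At least 2-fold lower were 8 of the 19 (42.1%), against 19.7% of all probe sets, and at least 4-fold lower were 5, against 6.77%. Among the 14 members at or above the mean lower quartile of the 2 arrays, 5 were at least 2-fold lower, against 15.6% of all such probe sets. Of the 8, 5 had a 3D value below the lower quartile of the 3D array (AREG, HBEGF, 1 probe set of EGFR and 2 of ERBB4). The other 3 were EGFR Cfa.8309.1.A1_at and both ERRFI1 probe sets. At least 2-fold higher was 1 probe set, TGFA Cfa.133.1.A1_at, against 14.3% of all. Of the 5 probe sets that passed on replicates 2 and 3, 4 had the same sign in replicate 1, the exception being ERBB3. Over all 19 the signs were the same for 10.

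**Figure D3:**
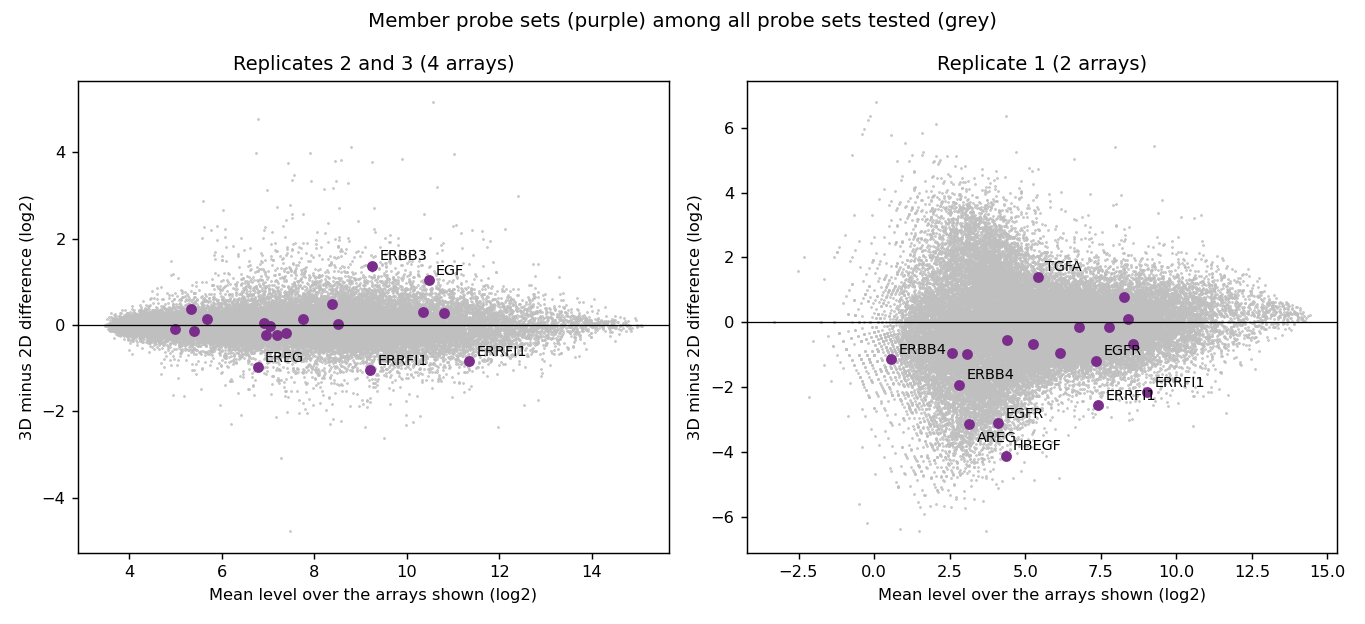
Difference between 3D and 2D (y axis, log2) against the mean level (x axis, log2) for all 42924 probe sets in grey and the 19 member probe sets in purple, for replicates 2 and 3 (left) and the replicate 1 pair (right). The grey cloud of replicate 1 is much wider at low levels, where AREG, HBEGF and 1 EGFR probe set lie, while the ERRFI1 points (-2.16 and -2.56) lie at its lower edge at higher levels.

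Beyond the receptors, ligands and ERRFI1, 74 genes of the pathway were measured, each by its brightest probe set on replicates 2 and 3. In 3D 3 of them rose and 3 fell, while 68 did not pass (8.11% called, against 7.28% of the 15115 genes, 4.17% higher and 3.12% lower). Their median log2 fold change was -0.025, and that of all genes -0.01. The share is near the background.

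The 5 other ligands measured did not pass. NRG1, a neuregulin that binds ERBB3 and ERBB4, differed by -0.57 on its brightest probe set (limma adjusted p = 0.129, n = 2 per group). Of its other 2 probe sets, CfaAffx.10523.1.S1_s_at did pass, with 9.21 and 9.23 in 2D and 8.38 and 8.69 in 3D (-0.685, limma adjusted p = 0.0386, n = 2 per group); it was singled out after its value was seen. In replicate 1 the brightest NRG1 probe set read 8.44 and 8.69, and the one that passed 7.03 and 5.43. NRG3 differed by -0.20. EPGN, which encodes epigen and is the next gene to EREG in the gene table, differed by -0.075, and BTC, which encodes betacellulin, by -0.05; EPGN and BTC were chosen after their values were seen.

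Among 8 genes of ligand shedding and maturation, 7 did not pass, including ADAM10 (0.04), a protease that releases EGF, and RHBDF2 (-0.215), a rhomboid-like partner of the sheddase ADAM17, which was not analysed here. ADAM10 and RHBDF2 were chosen after their values were seen. The gene that passed was TIMP3, an inhibitor of ADAM17 and other metalloproteinases. TIMP3 read 10.99 and 11.05 in 2D and 8.63 and 9.27 in 3D, a 4.20-fold fall (-2.07, SE 0.208, limma adjusted p = 0.0102, n = 2 per group). All 4 of its probe sets passed, and in replicate 1 the brightest went from 9.86 to 7.50.

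Of 21 adaptors and genes on the route to ERK, 2 rose, 1 fell and 18 did not pass. GRB7, an adaptor that binds phosphorylated ERBB2 and ERBB3, read 8.07 and 7.85 in 2D and 9.23 and 8.70 in 3D (1.005, SE 0.191, limma adjusted p = 0.0378, n = 2 per group). Both of its probe sets passed, and its replicate 1 difference was 1.02. In the gene table MIEN1 is the only protein-coding gene between GRB7 and ERBB2, whose own difference of 0.15 did not pass. GAB1, a docking protein for PI3K and the phosphatase SHP2, rose on the brightest of its 3 probe sets (0.81, limma adjusted p = 0.0308). This probe set differed by -0.39 in replicate 1, and the mean of the 3 did not pass (limma adjusted p = 0.0738). Cfa.19271.1.S1_s_at also had both 3D arrays above both 2D arrays, without passing (0.65, limma adjusted p = 0.0784). CfaAffx.6363.1.S1_at (-0.075) lay below the lower quartile on all 4 arrays. In replicate 1 these last differed by 0.67 and -0.72. PTPN11, which encodes SHP2, fell (-0.685, limma adjusted p = 0.0476, and 0.0504 with trend and robust priors). Its replicate 1 difference was 0.12. SHC2, another adaptor and chosen after its values were seen, did not pass on its brightest probe set (0.48, limma adjusted p = 0.0559). It did on the mean of both (0.43, limma adjusted p = 0.0402), and its brightest probe set had a replicate 1 difference of -0.51.

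In the PI3K and AKT list 1 of 14 genes rose and 13 did not pass. PIK3R1, a regulatory subunit of PI3K, read 9.46 and 9.43 in 2D and 10.70 and 10.67 in 3D on its brightest probe set. The arrays of each group were nearly equal, and PIK3R1 was 2.36-fold higher (1.24, SE 0.0971, limma adjusted p = 0.00619, n = 2 per group). Its other 2 probe sets were also higher in 3D on both arrays, at 0.405 and 0.335, without passing, and the mean of all 3 passed (0.66, limma adjusted p = 0.0153). In replicate 1 the brightest probe set read 7.84 and 8.06.

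Of 26 genes of receptor down-regulation and traffic 1 fell and 25 did not pass. The gene that fell was PTPN2, a phosphatase that acts on EGFR among other substrates (-0.54, SE 0.101, limma adjusted p = 0.0364, n = 2 per group). Of its 3 probe sets 2 passed, and in replicate 1 the brightest differed by 0.41. With trend and robust priors it did not pass (limma adjusted p = 0.0547). The ubiquitin ligase genes CBL (0.00), CBLB (-0.055) and CBLC (-0.555) did not pass, nor did LRIG1 (0.095), which encodes another inhibitor of the receptors; these 4 were chosen after their values were seen. In replicate 1 LRIG1 differed by -4.10, with a 3D value of 1.32, far below the lower quartile of its array, so the size is uncertain.

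**Figure D4:**
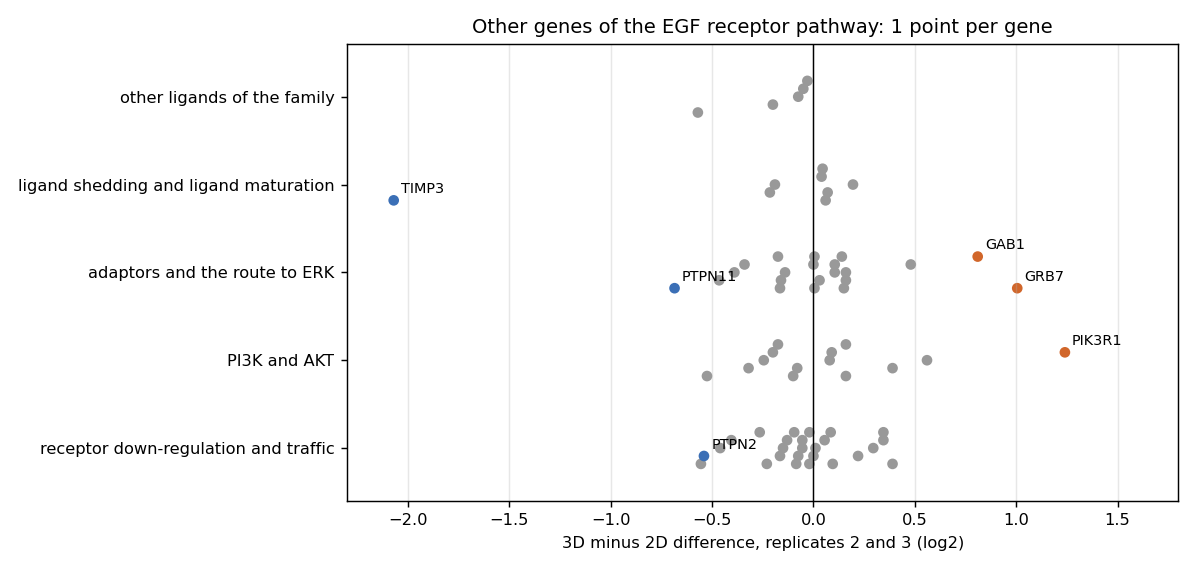
Difference between 3D and 2D on replicates 2 and 3 (x axis, log2) for 74 other genes of the pathway, 1 point per gene, in 5 lists (rows), with genes past the threshold named in orange (higher) or blue (lower). Most points lie near 0, and TIMP3 (-2.07) and PIK3R1 (1.24) lie farthest out.

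The genes with the most similar pattern over the 4 arrays of replicates 2 and 3 were found by the distance between profiles centred on their own means, among 14532 named genes. With 4 arrays this mostly picks genes with an equal difference. For ERBB3 they were NUDT8 (distance 0.09), AQP5 (0.104) and FBP2 (0.118), which share the higher value on 3D replicate 2. Their replicate 1 differences of 1.60, 0.76 and 1.72 had the opposite sign to that of ERBB3. For EGF they were GRAMD1C (0.064), PEX7 (0.0829) and CCPG1 (0.129), with replicate 1 differences of 2.05, 0.99 and 1.09. For ERRFI1 they were PDAP1 (0.026), ANLN (0.0456) and AGO3 (0.0477), with replicate 1 differences of -0.61, -0.99 and -0.26, each smaller in size than the -2.16 of ERRFI1.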

How the data were processed

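The deposited table holds log2 values per probe set for 3 arrays in 2D and 3 in 3D, as the authors made them. The submitters' processing notes name RMA and limma; versions, probe set definitions and genome build were not given in the sources used here. Log base 2 was taken from these notes and from the range of the values. The origin of the replicate 1 scale is not given either; every value under 1 there matched log2 of some multiple of 0.1 to within 0.006.

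The 111 control probe sets were left out. Probe sets were named through the platform annotation (1 symbol for 29254), and the Entrez identifiers of all 10 members were found in the gene table of UU_Cfam_GSD_1.0, used for names and gene order. Differences were fitted with lmFit and eBayes of limma 3.58.1 (R 4.3.3). P-values are two-sided and Benjamini-Hochberg adjusted over 42924 probe sets (values for gene means over their own fit of 15115 genes), with a threshold of 0.05, no filter on level and no block. Standard errors and intervals are limma's. The code was tested on simulated data. Python 3.11.15 was used for joins and plots.

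Members, lists and tests were chosen with earlier results of these data known. Named pathway genes were those past the threshold, or the 2 with the smallest adjusted p in a list without any, and others are named as chosen later; a gene stood for itself by its brightest probe set over the 4 arrays. The patterns of ERBB3, EGF and ERRFI1 were compared with those of all other named genes. The alternatives were other scalings, all 6 arrays, other priors, no dim probe sets, a replicate block, gene means and leaving out each array.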

Additional observations from a re-analysis of the deposited data

How the results depend on the processing

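The 5 member probe sets that passed kept their direction and their call with median centring, renewed quantile normalization, trend and robust priors, and without dim probe sets. The 6 pathway genes kept theirs too, except PTPN11 and PTPN2 with trend and robust priors (4 genes). As gene means 6 pathway genes passed, with SHC2 in place of GAB1. The fit without any 1 array, where the spread comes from the other group only, left 0 members, 0 probe sets and 0 pathway genes past the threshold, from 5, 2837 and 6, with 6 to 8, 4683 to 10892 and 7 to 21 at an unadjusted p under 0.05; no probe set passed at that size, so this says nothing about single calls.

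The deviations of same-numbered arrays had a correlation of 0.0013 across probe sets. With only 4 arrays this value cannot decide whether the numbers pair them. Whether the fit needs a replicate block was therefore not settled. With the replicate block on these 4 arrays, 0 members, 0 of all probe sets and 0 pathway genes passed limma's adjusted threshold, with 8, 8325 and 15 at an unadjusted p under 0.05.

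With all 6 arrays as deposited, limma also gave 0, 0 and 0 (0, 105 and 1 unadjusted). With all 6 quantile normalized it gave 0, 2 and 0 (3, 1775 and 3 unadjusted), and with the replicate block added 0, 0 and 0 (4, 3517 and 4 unadjusted). In these fits 6 probe sets that had not passed changed sign, with values as deposited and after quantile normalization (with or without the block): EGFR Cfa.8309.1.A1_at -0.197 and -0.149, ERBB2 -0.217 and -0.178, ERBB4 CfaAffx.21903.1.S1_s_at -0.617 and -0.414, AREG -0.957 and -0.632, TGFA CfaAffx.5980.1.S1_at -0.033 and -0.02, and TGFA Cfa.133.1.A1_at 0.35 and 0.348. TGFA as the mean of its probe sets, which for members was an alternative chosen after seeing the data, was -0.127. The 5 probe sets that had passed kept their sign with all 6 arrays. As deposited and after quantile normalization ERBB3 was 0.693 and 0.714, EGF Cfa.3524.1.S2_at 0.953 and 0.988, and EREG -0.833 and -0.805. ERRFI1 was -1.27 and -1.26 on Cfa.12144.1.A1_at, and -1.55 and -1.52 on CfaAffx.30095.1.S1_s_at. The replicate 1 values, on another scale, enter the fits with all 6 arrays.

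Leaving out 1 array turned the sign of 5 probe sets that had not passed, with ranges of -0.03 to 0.33 for ERBB2, -0.03 to 0.61, -0.01 to 0.09 and -0.24 to 0.05 for ERBB4 CfaAffx.21902.1.S1_at, CfaAffx.21903.1.S1_s_at and CfaAffx.21903.1.S1_at, and -0.43 to 0.08 for TGFA Cfa.133.1.A1_at. The adjusted p of the 5 called probe sets in these fits ranged from 0.0921 to 0.428. The table has no detection calls, so how far a dim value lies above background is unknown.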
